A study of Homo sapiens with 3 samples.

Results

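SOX4 is a transcription factor of the high-mobility-group (HMG) box family, whose members bind short AT-rich words in the minor groove of DNA and bend it. It is active in embryonic development and is found at high levels in many carcinomas. Its binding was mapped by chromatin immunoprecipitation and sequencing (ChIP-seq) in cells of BT549 at passage 5, a long-established line from a human breast tumour of the triple-negative class. The 3 libraries, replicates 1, 2 and 3, form 1 group that was treated alike as far as the labels say. All 3 titles carry the tag UT, which was not interpreted here. Each is a SOX4 immunoprecipitate made with an Abcam antibody from chromatin fixed first with the protein cross-linker DSG and then with formaldehyde. A background library (input or IgG) is not analysed here. Separate cultures are not stated in the labels, so the spread between libraries may be technical.

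The sites described here are those that replicate 3 alone placed at the end of a single protein-coding gene. Each deposited list gives 1 bp summits, the points of highest enrichment, and summits up to 200 bp apart were taken as 1 region. The sites were chosen by these summit positions: a region was kept when all its summits came from replicate 3, when it lay on an autosome other than 5, 8 and 9, and when its midpoint was within 1 kb of an end of exactly 1 coding gene. Of 6199 regions in all, 3616 held summits of replicate 3 only, and 2344 of these were on the 19 chromosomes used. The rule kept 1207 regions, or 19.5% of all regions and 51.5% of the replicate 3 only regions on those chromosomes (exact 95% interval 49.4 to 53.5%). They lie at 1174 of the 16727 coding genes there, or 7.02%, a share that the rule itself sets. Each of the 1207 regions held 1 summit. Of the rest, 325 lay at the ends of 2 or more coding genes and 812 had no coding gene end within 1 kb. Because the lists themselves chose the sites, their presence in replicate 3 and absence from the other lists is a description with no test.

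The same rule applied to the other libraries gave far fewer sites. Replicate 1 alone had 136 single-gene sites (40.4% of the regions with summits of replicate 1 only, exact 95% interval 35.1 to 45.8%), and replicate 2 alone had 98 (28.7%, 24.0 to 33.9%). The deposited lists differ in length, replicate 3 having 4430 summits, against 1368 and 1713 for replicates 1 and 2, and the read depth behind them is unknown. With replicate 3 shortened to its 1713 highest summits, 405 sites were kept, at 403 genes that are all among the genes of the full set. Replicates 1 and 2 then had 178 and 135 single-gene sites of their own. The shortened list is part of the full one, so the overlap and these rises follow largely from the cut. With only summits scoring at least 5 in every list, 715 sites were kept. Counting non-coding genes as neighbours too left 802 sites.

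A transcription start in a vertebrate genome commonly lies in a CpG island, a stretch rich in G, C and CG dinucleotides that is kept free of DNA methylation. Housekeeping genes, which most cells use, have such promoters more often than tissue-restricted genes.

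The promoter sequences at such sites are shown for 5 genes whose listed window holds the summit. TMEM242 is shown because it is the 1 gene among the 20 highest-scoring sites with such a window; the others were chosen after their values were seen, for the words they hold. The results on promoter words turn on windows like these. Each is 300 bases of GRCh38.p14 from RefSeq, written 5′ to 3′ on the gene's strand, with the listed start after its first 250 bases. A gene can have more than 1 listed start, and the window's need not be the outermost. Capitals mark the letters of a searched motif on either strand. TMEM242 (chr6:157323470-157323769, minus strand) has its summit at base 279 and holds none of the 13 motifs searched. In MOB1B (chr4:70902119-70902418, plus strand), a kinase-adaptor gene of the Hippo pathway, the summit at base 130 lies 6 bases from a GC box (GGGCGG). In YY1AP1 (chr1:155688725-155689024, minus strand) the summit at base 24 falls within a GC box at bases 21 to 26; it lies 227 bp upstream of the window's start but 5 bp upstream of the outermost start. PCIF1 (chr20:45934433-45934732, plus strand), which encodes the methyltransferase of cap-adjacent adenosine in mRNA, has its summit at base 286, 5 bases from the second of its pair of YY1 words (AAGATGGCG). C18orf32 (chr18:49487185-49487484, minus strand), with its summit at base 33, holds both SOX words (ACAAAG and ACAATG).
TMEM242: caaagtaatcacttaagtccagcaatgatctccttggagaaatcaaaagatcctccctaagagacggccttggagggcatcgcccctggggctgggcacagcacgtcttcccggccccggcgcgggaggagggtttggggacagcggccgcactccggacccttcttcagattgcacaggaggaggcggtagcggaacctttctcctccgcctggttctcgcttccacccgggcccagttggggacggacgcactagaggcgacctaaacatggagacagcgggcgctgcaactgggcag
MOB1B: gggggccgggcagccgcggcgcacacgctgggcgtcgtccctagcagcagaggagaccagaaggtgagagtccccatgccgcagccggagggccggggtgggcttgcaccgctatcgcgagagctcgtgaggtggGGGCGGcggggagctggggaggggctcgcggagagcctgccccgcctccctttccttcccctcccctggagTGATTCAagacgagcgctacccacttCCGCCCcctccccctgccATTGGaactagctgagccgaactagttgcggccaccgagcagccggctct
YY1AP1: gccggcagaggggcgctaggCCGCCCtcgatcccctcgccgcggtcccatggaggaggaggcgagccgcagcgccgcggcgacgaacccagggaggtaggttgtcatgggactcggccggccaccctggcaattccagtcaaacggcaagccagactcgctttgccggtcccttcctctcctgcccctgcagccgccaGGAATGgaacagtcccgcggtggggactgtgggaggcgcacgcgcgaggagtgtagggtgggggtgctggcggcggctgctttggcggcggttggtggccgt
PCIF1: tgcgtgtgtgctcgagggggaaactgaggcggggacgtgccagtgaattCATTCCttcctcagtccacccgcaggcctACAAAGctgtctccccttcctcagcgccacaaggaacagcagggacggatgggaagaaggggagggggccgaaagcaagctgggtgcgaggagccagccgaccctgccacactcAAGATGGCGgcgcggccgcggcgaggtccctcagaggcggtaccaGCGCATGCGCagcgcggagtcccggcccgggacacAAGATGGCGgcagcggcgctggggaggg
C18orf32: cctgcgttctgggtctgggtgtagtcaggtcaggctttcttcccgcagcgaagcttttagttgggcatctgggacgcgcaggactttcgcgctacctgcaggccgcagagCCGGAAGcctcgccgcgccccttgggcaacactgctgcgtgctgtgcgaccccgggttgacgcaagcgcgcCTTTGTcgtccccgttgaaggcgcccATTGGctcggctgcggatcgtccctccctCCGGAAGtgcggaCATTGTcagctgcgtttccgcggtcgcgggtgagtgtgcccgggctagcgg

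Nearly all sites whose gene has a known strand were at its start. RefSeq promoter windows of GRCh38.p14 (250 bases before to 50 after a listed start) gave the strand for 1056 of the 1207 sites, and 1040 of these (98.5%, exact 95% interval 97.6 to 99.1%) lay nearer the start of their gene than its other end. This held for the other single-gene sets too. It was 96.2% for sites of replicate 3 with another library, 99.2% for replicate 1 only and 100% for replicate 2 only. The replicate 3 only sites did not centre on the start itself. Their median position was 163 bp into the gene (interval of the median 151 to 176 bp), the quartiles were 29 and 289 bp, and 77.9% lay downstream of the start (75.2 to 80.4%). The fullest stretch, from 100 to 199 bp into the gene, held 235 sites, the next 100 bp held 201, and the 100 bp just before the start held 67. In all, 931 of the 1207 sites (77.1%, 74.7 to 79.5%) lay inside their gene. The share was 70.6% (63.3 to 77.1%) for single-gene sites of replicate 3 with another library, placed at the midpoint of their outermost summits. For replicate 1 only and replicate 2 only sites it was 54.4% and 55.1%. The gene table used gives whole genes, so exons and introns are not separated.

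**Figure D1:**
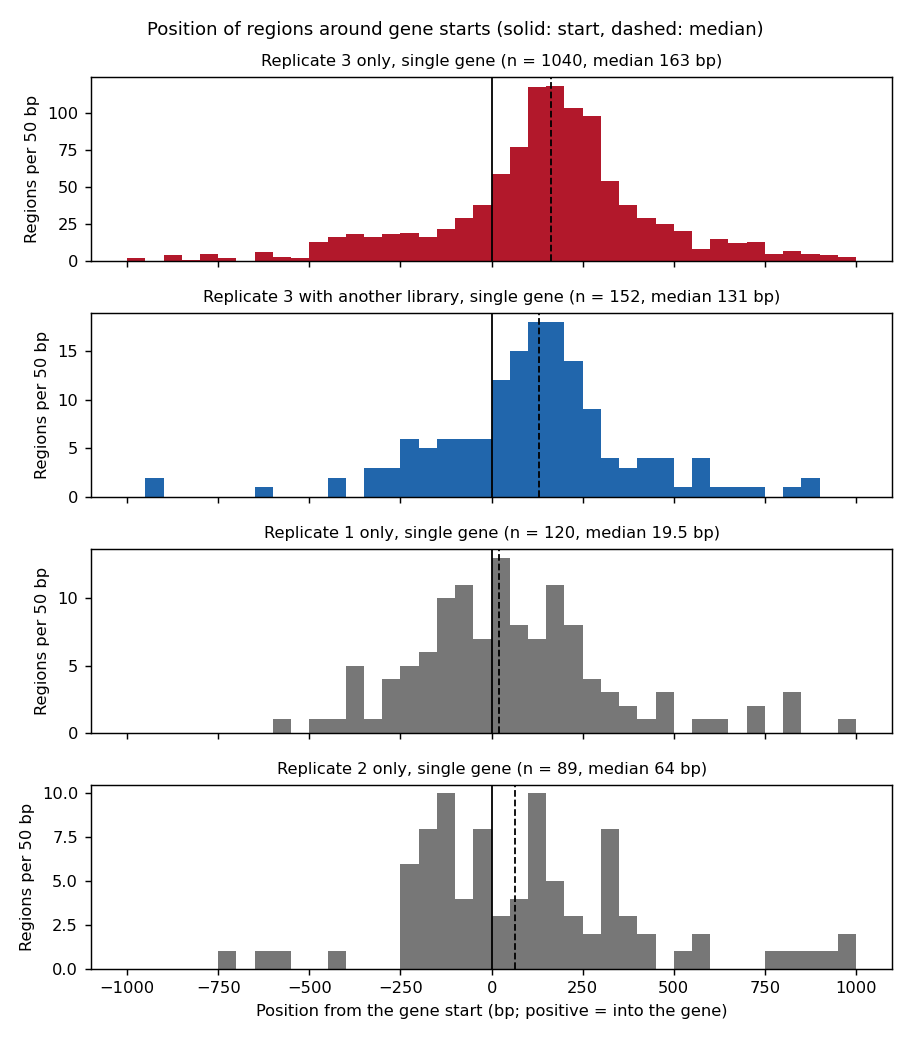
Number of single-gene regions per 50 bp against their position from the gene start (bp, positive into the gene), for sites of replicate 3 only (1040), of replicate 3 with another library (152), of replicate 1 only (120) and of replicate 2 only (89). The replicate 3 only sites peak inside the gene with a median of 163 bp, against 131, 19.5 and 64 bp in the other panels. Regions of several libraries are placed at the midpoint of their outermost summits.

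A region of several libraries is placed at the midpoint of its outermost summits, whereas a replicate 3 only site is its own summit. These measures are unlike. Sites found in replicate 3 and at least 1 other library were mostly downstream of the start too. Their median was 131 bp into the gene (89.5 to 157 bp, 152 sites), and 73.7% were downstream of the start (65.9 to 80.5%). The 34 of them found in all 3 libraries had a median nearer the start, 48.2 bp into the gene (-13 to 132 bp), with 67.6% downstream (49.5 to 82.6%). The single-library sites of the other replicates lay more evenly on both sides of the start. Of 120 such sites of replicate 1, 56.7% were downstream (47.3 to 65.7%), and of 89 such sites of replicate 2, 55.1% (44.1 to 65.6%). These intervals do not overlap that of the replicate 3 only sites and cover counting error only. Each set comes from 1 library, so the difference between libraries was not tested. A gene can have several listed starts. Measured from the nearest of them, 70.5% of the replicate 3 only sites were downstream (67.6 to 73.2%). So were 65.8% of the sites of replicate 3 with another library (57.7 to 73.3%), an interval that overlaps the first. The share was 48.3% for the replicate 1 only sites and 44.9% for the replicate 2 only sites.

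The SOX words in the printed windows of PCIF1 and C18orf32 were not next to the summits. In PCIF1, ACAAAG is at bases 79 to 84, which is 202 bases from its summit. C18orf32 has the reverse complement of ACAAAG at bases 182 to 187 and of ACAATG at bases 250 to 255, 149 and 217 bases from its summit. The same words were counted in all promoter windows. Of the 1174 genes with a site, 1029 (87.6%) had a window, and the first listed window of each was searched. ACAAAG or ACAATG stood in 14.5% of them (149 of 1029, exact 95% interval 12.4 to 16.8%), against 19.4% of the windows of all coding genes on these chromosomes (2642 of 13634). Among the windows that hold the summit itself, the share was 12.4% (31 of 251 windows, 8.55 to 17.1%). The windows end 50 bases into the gene, so most summits lie past them, and a missing word says nothing of SOX4.

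Words of general promoter factors were more frequent in the promoters with sites. The GC box GGGCGG, bound by SP and KLF factors, was in 72.0% of them (69.2 to 74.7%), against 58.8% of all windows. The ETS word CCGGAAG was in 20.9% (18.5 to 23.5%) against 14.4%, and GCATGCGC, part of the NRF1 site, was in 7.68% (6.12 to 9.48%) against 4.26%. The cyclic AMP response word TGACGTCA was in 4.37% (3.21 to 5.81%) against 2.67%, and the YY1 word AAGATGGCG in 4.08% (2.96 to 5.48%) against 2.77%. All 5 words hold a CG dinucleotide. The share was lower for the TATA and AP-1 words, which hold none: the TATA word TATAAA was in 6.12% (4.74 to 7.77%) against 9.81%, and the AP-1 word TGANTCA in 3.11% (2.14 to 4.36%) against 5.76%. CCAAT, bound by NF-Y, had 34.5% (31.6 to 37.5%) against 36.2%, but stood in 22.3% (17.3 to 28.0%) of the 251 windows that hold the summit. TATAAA was in 3.59% of those (1.65 to 6.70%). The E-box CACGTG had 10.3% (8.51 to 12.3%) against 8.79%. CATTCC, bound by TEAD factors, had 9.82% (8.07 to 11.8%) against 11.7%, and CTCGCGAG 1.94% (1.19 to 2.99%) against 1.55%. These are shares of promoters with the letters and not binding sites. Both strands were searched and words may share letters, as the overlapping pair of NRF1 words in PCIF1 does.

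Base composition moved with these shares. The median GC content was 66.0% in promoters of genes with a site (interval 65.3 to 66.7%), against 62.7% in those of other coding genes. The median ratio of observed to expected CG dinucleotides was 0.880 (quartiles 0.763 and 0.969) against 0.752 (0.356 and 0.908). A ratio below 0.6, a usual limit for a CpG island, was found in 7.87% of promoters with a site (6.30 to 9.69%) and in 36.1% of the others (35.3 to 37.0%). The part of base composition in the motif shares was not tested.

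The score is the authors', a −log10 of either a p or a q value, and ranks summits only within 1 list. The sites had a median of 5.27 (interval 5.12 to 5.42, quartiles 4.32 and 6.50), a lowest value of 2.57 and a highest of 13.1. Among the sites, 43.0% scored above the median of the whole replicate 3 list, which was 5.58. Only 19 of them (1.57%) scored over 10, against 311 of 4430 summits (7.02%) in the whole list. The whole list also takes in shared sites and the chromosomes and contigs that the rule left out, so the sets are unlike. On the same chromosomes, 95% of the sites scored below 8.80. For replicate 3 only regions away from coding gene ends that limit was 9.04. Sites of replicate 3 shared by neighbouring genes had a median of 5.49, and those away from coding gene ends 5.27. At single genes the replicate 3 score had a median of 5.73 where 1 other library shared the site and of 6.56 where all 3 did. Sharing and score come from the same peak calling, so these differences are not independent of the rule.

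**Figure D2:**
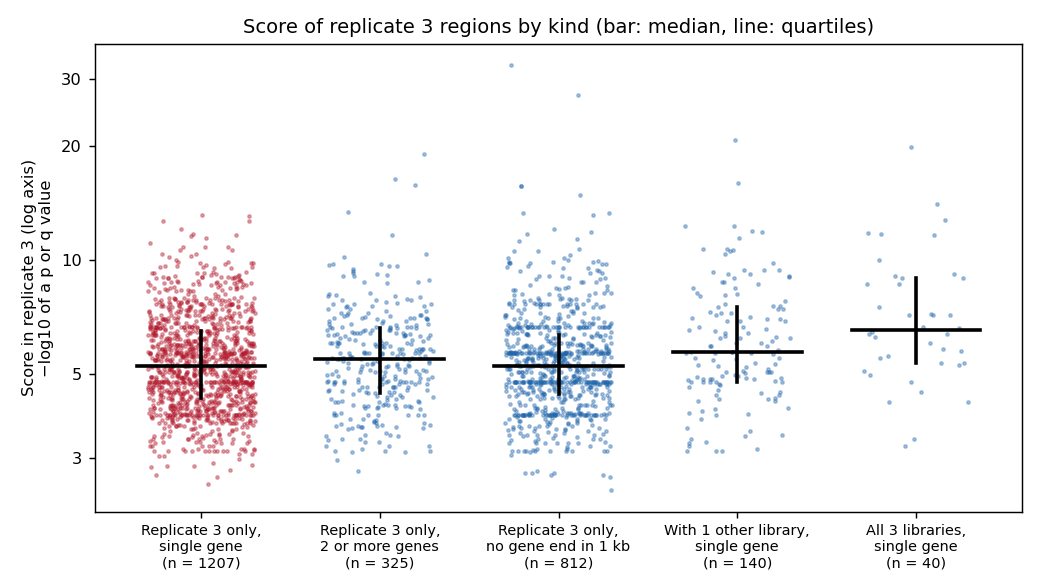
Score in replicate 3 (log axis, the authors' −log10 value) of 1207 single-gene sites of replicate 3 only, beside other kinds of replicate 3 regions on the same chromosomes. Each point is a region, thick bars are medians and vertical lines span the quartiles; the medians lie between 5.27 and 6.56.

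Score varied little with position. Sites from 100 to 199 bp into the gene had a median of 5.69 and those from 200 to 299 bp a median of 5.59. The 67 sites in the 100 bp before the start had 4.77, and the 146 sites from 400 bp to 1 kb into the gene had 4.97. The quartiles of these stretches overlapped, with 4.43 as the lower quartile of the first and 6.12 as the upper quartile of the sites just before the start.

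The 20 highest sites stood above 92.9 to 96.4% of the replicate 3 list. ZNF248, a zinc finger gene, had the highest score, 13.1, at chromosome 10, position 37857983, inside the gene and 120 bp from its start. Replicate 1 had no summit nearer than 119 kb and replicate 2 none nearer than 1062 kb. H4C5, a gene for the core histone H4, scored 12.7 at chromosome 6, position 26204754. TAF4, which encodes a subunit of the general factor TFIID, scored 11.7 at chromosome 20, position 62066208, 327 bp upstream of its start. AHR, the receptor for dioxin-like ligands, scored 11.6 at chromosome 7, position 17299287, 635 bp into the gene. The nearest summit of another list to any of these 4 was 48.2 kb away, at H4C5. Histone genes have near-identical copies, so the H4C5 site is uncertain.

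Further transcription factor genes followed. NR2C2, an orphan nuclear receptor gene, scored 11.1, and ZNF239, another zinc finger gene, scored 10.8 at 112 bp into the gene. NFYA, which encodes the CCAAT-binding subunit of NF-Y, scored 10.8 at chromosome 6, position 41073325, but replicate 2 had a summit only 242 bp away. SMAD4, the shared partner of the signal-carrying SMAD proteins of TGF-beta and BMP signalling, scored 10.3 at chromosome 18, position 51030376, 163 bp into the gene. The nearest summits of both other libraries lay 1217 kb from it. ELK4, an ETS factor gene, scored 10.2 at 232 bp into the gene, and SP3, a GC-box factor gene, scored 10.0 at 694 bp. DMTF1, a Myb-like factor gene, scored 10.4 at 271 bp, and MSL2, a gene of a histone H4 acetyltransferase complex, scored 10.6 at 455 bp upstream.

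The remaining genes of the 20 act in other processes. LRP6, a co-receptor for Wnt ligands, had a site of score 10.8 at chromosome 12, position 12267424, 380 bp outside the gene. PDCD6IP, which encodes the endosomal sorting adaptor ALIX, scored 12.7 at 216 bp into the gene, and NACA, a gene for a chaperone of nascent proteins, scored 10.7 at 117 bp. DENND6A, an activator gene for RAB GTPases, scored 10.4 at 177 bp and UBL3, a ubiquitin-like gene, scored 11.4 at 76 bp. GLCCI1, named for its induction by glucocorticoids, scored 12.1 at 295 bp, with a replicate 2 summit 0.682 kb away. TMEM242 scored 11.7 at 28 bp, with the nearest summits of replicates 1 and 2 at 10.5 and 10.6 kb. NBPF1 scored 13.0 at 409 bp and had a replicate 1 summit 338 bp away. It belongs to a family of near-identical copies, so its reads may be split among them. Of the 20 sites, 3 thus had a summit of another list within 1 kb, at NBPF1, NFYA and GLCCI1.

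For most sites the other lists held nothing near. The nearest summit of replicate 1 was a median of 1016 kb away and that of replicate 2 a median of 927 kb. Still, 87 of the 1207 sites (7.21%, 5.81 to 8.81%) had a summit of replicate 1 or 2 within 1 kb. ASXL1, a polycomb-associated chromatin gene, had its site 4 bp from the start (score 5.78), with a replicate 1 summit at 237 bp and a replicate 2 summit at 286 bp. The ribosomal protein gene RPS19 had a site of score 5.01 with theirs at 247 and 262 bp, and HSPH1, a heat-shock chaperone gene, a site of score 6.48 with theirs at 544 and 559 bp. Of the 1174 genes, 1086 (92.5%) had no region of replicate 1 or 2 within 1 kb of their ends. Without the same share over all coding genes, this share cannot be read as a trait of these genes. Replicate 1 only and replicate 2 only single-gene sites reached 0.813% and 0.586% of all 16727 coding genes. A region of replicate 1 only or replicate 2 only, also counting those at several genes, lay at 62 of the 1174 (5.28%). The same shares over all coding genes were not counted.

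The sites next to the limits of the rule are described without a test. Just inside the 200 bp limit were sites at PTMA (score 6.49, nearest other summit 201 bp), SCGB2B2 and SLC25A24 (both 204 bp), BIRC2 and RAD52 (3.92 and 6.14, both 208 bp) and MOV10 (5.80, 209 bp). Just outside it were OR2T1 (replicate 3 score 12.8, 198 bp), ADNP, AKAP11 and SERBP1 (6.48, 4.22 and 4.26, all 195 bp), PARP2 (3.55, 194 bp) and SIRT5 (6.58, 193 bp). At the 1 kb limit, CEP170, BHLHE40 and ATL1 were the last inside, with scores of 3.78, 3.97 and 6.40 at 978, 972 and 967 bp. SUCO, NRM and CYP1B1 were the first outside, with scores of 8.92, 3.52 and 3.57 at 1014, 1020 and 1023 bp.

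Within 5 bp of a start there were 12 sites, with scores from 3.13 to 9.06. RPP21, a gene for a protein of the tRNA-processing enzyme RNase P, and PCF11, a gene of mRNA 3′ end formation, had their summits on the first base of the gene, with scores of 5.01 and 4.21. DZIP1, TNKS2, which encodes a tankyrase, and TAF13, another TFIID subunit gene, had summits within 1 bp of the start (6.56, 3.99 and 3.13). TMEM170B lay 3 bp from the start, with a score of 3.31. ASXL1, ZNF200 and AP3S2 lay at 4 bp (5.78, 4.71 and 4.38), and YY1AP1, ZNF135 and TMEM41B at 5 bp (9.06, 5.48 and 3.17).

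Most genes had 1 site, and 33 of the 1174 had a pair. The sites of a pair were 244 bp to 28.4 kb apart, with a median of 555 bp, and in 1 gene, KIFBP, they lay more than 5 kb apart, at its opposite ends. VPS26C, a gene of the endosomal retriever complex, had scores of 9.72 and 4.93 at sites 791 bp apart. MET, the receptor gene for hepatocyte growth factor, had scores of 7.44 and 5.68 at 23 and 515 bp into the gene. BHLHE40, a repressor gene of the circadian and hypoxia responses, had scores of 8.61 and 3.97 upstream of its start, at 452 and 972 bp. GABPB1, a gene for the partner of an ETS factor, had 8.39 and 5.08 at 407 and 56 bp into the gene.

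Of the 16 sites nearer the other end of a gene, 7 lay at histone genes, most of them so short that both ends fall within 1 kb of the site. H3C3 scored 7.56, at 249 bp from its start and 236 bp from its other end. H1-5, a linker histone gene, scored 7.33 at 84 bp from its other end. The other 9 included RNF40, a gene for a histone H2B ubiquitin ligase, with a score of 7.04 at 651 bp inside its 3′ end. HNRNPDL, a splicing regulator gene, had a site of score 6.02 that lay 581 bp beyond its 3′ end.

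A single coding gene did not mean a single gene of any kind. A non-coding gene had an end within 1 kb of 405 sites (33.6%, 30.9 to 36.3%), and for 361 of these it was a long non-coding RNA gene. A tRNA gene was that near to 7 sites, a microRNA gene to 15. The same shares over all coding gene ends were not counted, so these are no trait of the sites. With non-coding genes as neighbours too, replicate 1 only sites also fell, from 136 to 101, and replicate 2 only sites from 98 to 66. The next coding gene end lay a median of 27.8 kb away (quartiles 9.55 and 65.8 kb), and 80 sites had one within 2 kb. The genes with sites were longer than other coding genes, with a median of 43.6 kb (39.5 to 46.2 kb) against 22.9 kb. A gene with a close neighbour can less often meet the rule, so shares are also given for genes without one.

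Across the 19 chromosomes, 7.02% of the 16727 coding genes had a site (1174 genes). Among the 10475 genes with no other coding gene end within 2 kb, the share was 8.73%. Replicate 1 only sites reached 0.813% of coding genes and replicate 2 only sites 0.586%. The share differed by chromosome. It was 13.6% on chromosome 13 (46 of 338 genes, exact 95% interval 10.1 to 17.7%), 12.3% on chromosome 6 (129 of 1049, 10.4 to 14.4%) and 11.9% on chromosome 18 (32 of 270, 8.25 to 16.3%). It was 2.40% on chromosome 17 (28 of 1169, 1.60 to 3.44%), 2.41% on chromosome 19 (35 of 1451, 1.69 to 3.34%) and 2.66% on chromosome 22 (12 of 451 genes). Chromosome 2, with 3.51% (44 of 1254, 2.56 to 4.68%), and chromosome 11, with 52 of 1301 genes, were low too. The interval lay wholly above 7.02% on chromosomes 1, 3, 6, 7, 13, 18 and 20, and wholly below it on chromosomes 2, 11, 15, 16, 17, 19 and 22. Among genes with no close neighbour the share was 15.3% on chromosome 13, 15.5% on chromosome 6, 2.98% on chromosome 17 and 3.74% on chromosome 19. Single-gene sites of replicate 3 with another library, 180 in all, were counted as regions and not as shares of genes. They numbered 12 on chromosome 13 (338 coding genes), 19 on chromosome 6 (1049) and 2 on chromosome 18 (270). There were 3 on chromosome 17 (1169), 5 on chromosome 19 (1451) and 0 on chromosome 22 (451). Chromosome 1 had 47 (2061 coding genes), chromosome 12 had 3 (1024) and chromosome 15 had 0 (617). Differences between chromosomes were not tested. The median score of the replicate 3 only sites was 4.77 to 5.97 on every chromosome.

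**Figure D3:**
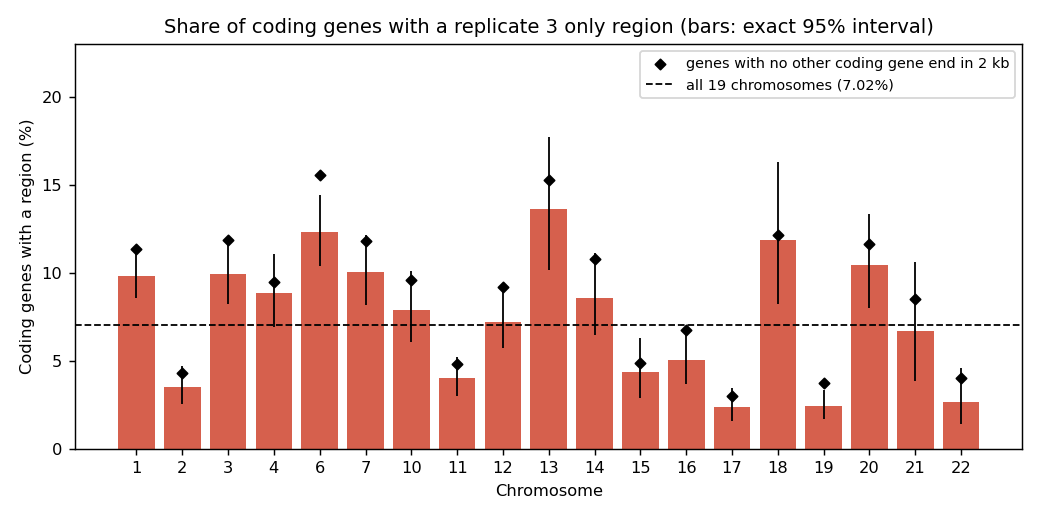
Percent of coding genes with a replicate 3 only, single-gene site on each of the 19 chromosomes, with exact 95% intervals; diamonds show genes with no other coding gene end within 2 kb. Chromosomes 13, 6 and 18 have the highest shares and chromosomes 17, 19 and 22 the lowest, beside 7.02% of all coding genes.

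The genes were then grouped into 39 families and lists, each set beside the 7.02% of all coding genes. The share was higher in 26 of them and lower in 13. Among genes with no close neighbour it was above the 8.73% of all such genes in 27 lists and below it in 12. Mitochondrial ribosomal proteins, ATP synthase and cytochrome genes, and cohesin and condensin went from below to above, and the RAB and DNA replication lists from above to below. Against the whole list, the share among such genes fell in some lists and rose in more. It fell from 21.1% to 12.5% (1 of 8) for MHC class I antigen processing. RAB genes went from 9.68% to 7.5% and DNA replication from 8.11% to 5.56%. Immediate early genes went from 21.4% to 18.2% and chromatin genes from 3 of 54 to 1 of 25. In the paragraphs below, shares among such genes are given for the lists that left their whole-list interval, and all of these rose. With all genes, the interval lay wholly above 7.02% in 6 lists and wholly below it in 3. Among genes with no close neighbour the comparison is with 8.73%. Cytosolic ribosomal proteins (11.4 to 40.2%), ubiquitin-conjugating enzymes (13.3 to 59.0%) and the AP-1, TEAD and YAP list (16.3 to 61.6%) stayed wholly above it. The intervals of aminoacyl-tRNA synthetases (8.39 to 58.1%), ZNF genes (8.62 to 15.9%) and histones (4.05 to 45.65%) took it in. Chaperones (15.2 to 72.3%) came to lie above it and solute carriers (2.33 to 8.66%) below it. The intervals cover counting error only, lists overlap and genes of a family may lie in clusters, and no list was tested. The lists were also chosen with earlier results of these data known.

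**Figure D4:**
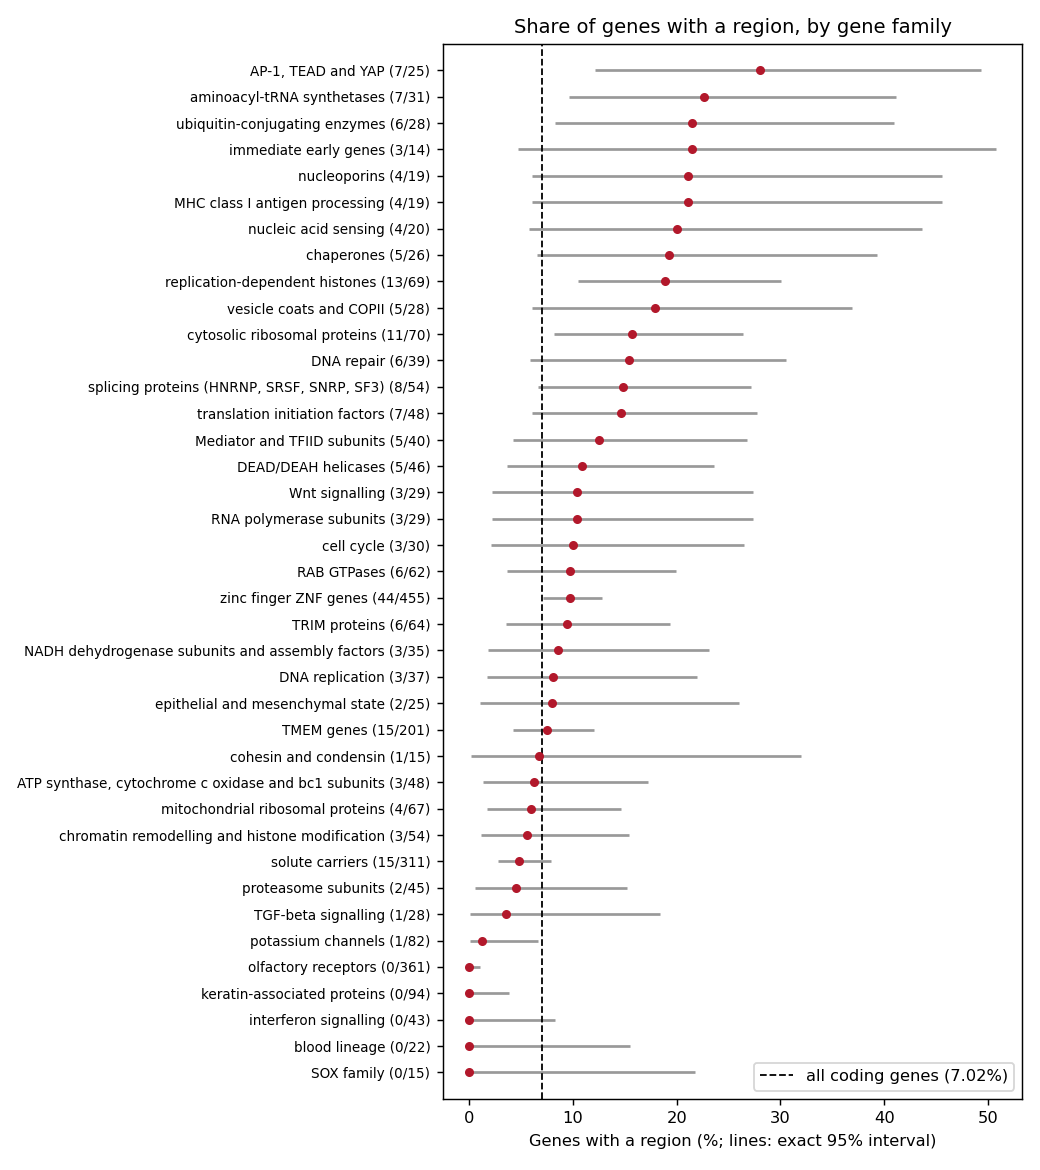
Percent of genes in each of 39 families or lists with a replicate 3 only, single-gene site, with exact 95% intervals and counts; the dashed line is the 7.02% of all coding genes. The AP-1, TEAD and YAP list is highest at 28.0% and 5 lists, among them olfactory receptors and interferon signalling, are at 0. The lists were chosen with earlier results of these data known.

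Of 7 lists of translation and RNA handling, 2 had an interval wholly above 7.02%, the cytosolic ribosomal proteins and the aminoacyl-tRNA synthetases. Among genes with no close neighbour, the interval of the synthetases took in the 8.73% of all such genes. Cytosolic ribosomal proteins, the protein part of the ribosome, had 11 of 70 genes with a site (15.7%, 8.11 to 26.4%). The highest of them were RPS12 at 7.51, RPL32 at 6.42 and RPS9 at 6.41, with summits 77, 88 and 79 bp into the gene. Mitochondrial ribosomal proteins had 4 of 67 (5.97%, 1.65 to 14.6%), led by MRPL3 with a score of 7.69; among those with no close neighbour it was 18.2% (4 of 22), beside 8.73% of all such genes. Translation initiation factors had 7 of 48 (14.6%, 6.07 to 27.8%), including EIF4B and EIF5 (scores 7.57 and 7.38) and EIF4E, the cap-binding factor gene (4.49). Replicate 1 had a summit 0.380 kb from the EIF5 site. Aminoacyl-tRNA synthetases, which load tRNAs with amino acids, had 7 of 31 (22.6%, 9.59 to 41.1%), led by GARS1 (6.76) and NARS2 (6.13). Splicing proteins had 8 of 54 (14.8%, 6.62 to 27.1%), led by SRSF5 (9.27) and HNRNPR (7.42). DEAD/DEAH helicases had 5 of 46 (10.9%, 3.62 to 23.6%), with DHX9 at 7.33 and DDX39B at 7.17. Nucleoporins, which build the nuclear pore, had 4 of 19 (21.1%, 6.05 to 45.6%), led by NUP153 (5.27).

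Genes of transcription and chromatin were mixed. Zinc finger genes named ZNF had 44 of 455 (9.67%, 7.12 to 12.8%), among them ZNF202 (9.90), ZNF326 (9.30) and ZNF335 (9.22). Mediator and TFIID subunits had 5 of 40 (12.5%, 4.19 to 26.8%), with MED23 at 7.02 after TAF4. RNA polymerase subunits had 3 of 29 (10.3%, 2.19 to 27.4%). Replication-dependent histones had 13 of 69 (18.8%, 10.4 to 30.1%), and after H4C5 the highest were H3C10 (8.82) and H3C2 (8.61), all in near-identical copies and so uncertain. Chromatin remodelling and histone modification genes had 3 of 54 (5.56%, 1.16 to 15.4%): SMARCB1, a core SWI/SNF subunit gene (4.81), SMARCD2 (4.63) and KAT2B (3.99). Of 15 cohesin and condensin genes, SMC3 had a site (4.14).

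Genes of protein turnover, energy and traffic followed. Ubiquitin-conjugating enzymes had 6 of 28 (21.4%, 8.30 to 41.0%), led by UBE2S, which extends chains for the anaphase-promoting complex (5.87). Chaperones had 5 of 26 (19.2%, 6.55 to 39.4%), led by CCT2, a subunit gene of the chaperonin TRiC (9.53), and 41.7% (5 of 12) among those with no close neighbour. Proteasome subunits had 2 of 45 (4.44%, 0.543 to 15.2%), PSMD6 (7.84) and PSMD2 (4.77). Among respiratory genes, NADH dehydrogenase subunits and assembly factors had 3 of 35 (8.57%, 1.80 to 23.1%), led by NDUFB4 (9.59), and 30.0% (3 of 10) among those with no close neighbour. Genes of ATP synthase, cytochrome c oxidase and bc1 had 3 of 48 (6.25%, 1.31 to 17.2%), led by COX18 (9.59). Vesicle coat and COPII genes had 5 of 28 (17.9%, 6.06 to 36.9%), with ARCN1 highest (6.42). RAB-named genes had 6 of 62 (9.68%, 3.63 to 19.9%), led by RAB5B of early endosomes (8.68), and TRIM genes 6 of 64 (9.38%, 3.52 to 19.3%). TMEM genes had 15 of 201 (7.46%) and solute carriers 15 of 311 (4.82%, 2.72 to 7.83%), where SLC25A13, a mitochondrial carrier gene, was highest (9.67).

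The cell cycle and genome upkeep lists had intervals that take in the 7.02% of all genes. The cell cycle list had 3 of 30 (10.0%, 2.11 to 26.5%): TTK, a spindle checkpoint kinase gene (6.66), RBL1 (6.19) and AURKB (5.50). DNA replication had 3 of 37 (8.11%, 1.70 to 21.9%), with RFC1 highest (6.02). DNA repair had 6 of 39 (15.4%, 5.86 to 30.5%), including the Fanconi anaemia genes FANCI (6.56) and FANCD2 (6.50). RAD52, of the same list, had a replicate 2 summit 208 bp from its site.

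The signalling lists ran from 28.0% to 3.57% of genes with a site. All were chosen with earlier results of these data known, so a high share is no independent support. The list of AP-1, TEAD and YAP genes, which join growth-factor response and the Hippo pathway, had 7 of 25 (28.0%, 12.1 to 49.4%). They were CCN2, a secreted target of YAP (score 7.12, 89 bp into the gene), the AP-1 subunit genes JUN (6.61, 356 bp upstream), FOSB (6.13, 148 bp upstream) and JUND (5.55, 146 bp upstream), the Hippo kinase genes LATS2 (6.19, 134 bp into the gene) and LATS1 (5.37, 29 bp), and CCN1 (5.52). CCN1 had a replicate 1 summit at 407 bp and a replicate 2 summit at 358 bp from its site, and the nearest to CCN2 was a replicate 1 summit at 1.01 kb. The immediate early list, which shares JUN and FOSB with it, had 3 of 14 (21.4%, 4.66 to 50.8%), the last being IER3 with a replicate 2 summit 1.71 kb from its site. The Wnt list had 3 of 29 (10.3%, 2.19 to 27.4%): LRP6, GSK3B, the kinase gene of the beta-catenin destruction complex (5.44), and the receptor gene FZD1 (5.42). Of 28 TGF-beta genes SMAD4 alone had a site (3.57%, 0.0904 to 18.4%). Of 25 genes of epithelial and mesenchymal state there were 2, the tight-junction gene CLDN1 (5.56) and ZEB1, which encodes a repressor of epithelial genes (4.19).

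Differences between the immune lists were not tested. MHC class I antigen processing had 4 of 19 (21.1%, 6.05 to 45.6%): HLA-E (5.88), the chaperone gene PDIA3 (4.81), and the peptide transporter gene TAP2 and its partner TAPBP (3.55 and 3.16). The last 2 stand above 5.64% and 1.96% of the replicate 3 list, and the TAPBP site lies 474 bp beyond the 3′ end of the gene. Nucleic acid sensing had 4 of 20 (exact 95% interval 5.73 to 43.7%): the NF-kappa-B subunit genes RELA (5.48) and NFKB1 (3.17), TRIM25 (5.44) and TBK1 (4.94). Replicate 1 had a summit 0.352 kb from the NFKB1 site. Interferon signalling had 0 of 43 genes, which allows a share of up to 8.22%.

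Lists of tissue-restricted genes had few or no sites. Olfactory receptors had 0 of 361 (exact upper limit 1.02%), keratin-associated proteins 0 of 94 (3.85%) and potassium channels 1 of 82 (1.22%, 0.0309 to 6.61%), KCNH1 with a score of 5.69. Blood lineage genes had 0 of 22 (upper limit 15.4%), and the SOX family had 0 of 15 (21.8%). For the last 2 lists and interferon signalling the upper limit lies above 7.02%, so a lower share was not detectable with so few genes.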

How the data were processed

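Per the labels, 36-bp paired-end reads were made from SOX4 ChIP libraries, and the tools named per the submitters' processing notes are MACS2, BWA and SAMtools, without versions. The authors deposited 1 list of 1 bp summits per library, scored by −log10 of either the p-value or the q-value; which of these, the calling threshold and any control are not given in the sources used here. Read depth is unknown. The notes name hg19, but 41 contig names of the KI270 kind and positions up to 83247361 on chromosome 17 are those of GRCh38. From the lists, summits were joined and set against the RefSeq GRCh38.p14 gene table with Python 3.11.15, pandas 2.3.3 and scipy 1.17.1. The strand came from the promoter table, and intervals are exact 95% binomial or, for medians, order-statistic intervals that cover counting error only. With 1 group and no control, no test was made. Members and lists were chosen with earlier results of these data known. The text names the 20 highest sites, those at the rule's limits, those closest to a start, genes with 2 sites and up to 6 genes a list. RAB and COX patterns also take in partner and assembly genes. The steps were tested on simulated data. Alternatives changed gap, distance, score, list length, gene set and libraries.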

Additional observations from a re-analysis of the deposited data

How the results depend on the processing

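The 1207 sites were 715 with summits scoring at least 5, 405 with replicate 3 shortened to the length of replicate 2, and 802 with all gene types as neighbours. The share of coding genes with a site was 4.23%, 2.41% and 4.70% in these settings, and 7.44%, 6.61% and 6.51% with gaps of 100, 500 and 1000 bp, against 7.02%. It was 8.73% among genes with no other coding gene end within 2 kb. The median score of the sites was 6.30 with the score limit and 7.12 with the shortened list, by construction. Replicate 2 only sites fell to 53 with the score limit, against 98. Among genes with no close neighbour, mitochondrial ribosomal proteins had 18.2%, NADH dehydrogenase genes 30.0% and chaperones 41.7% with a site; the other 36 lists stayed within their intervals. In windows that hold the summit, CCAAT was in 22.3%, TATAAA in 3.59% and CACGTG in 13.1%, and the other 10 motifs stayed within their intervals. From the nearest listed start, 70.5% of sites were downstream, an alternative added after the data were seen, as were the shortened list (78.2%) and left-out libraries for this share. Leaving out replicate 1 or 2 gave 1272 to 1294 sites, 7.38 to 7.48% of coding genes, medians of 5.27 to 5.30, 76.9 to 77.3% inside their gene, 98.3% nearer the start and 77.8 to 78.2% downstream. Replicate 1 only sites numbered 167 without replicate 2, and replicate 2 only sites 133 without replicate 1. Without replicate 3 no site can exist. No paired analysis was possible because the libraries form 1 group.

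The sites rest on 1 library, and read depth, peak width and a control were not used here. Strand was not given for 151 sites, and 145 genes with a site had no promoter window to search.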
